A study of Mus musculus with 95 samples.

Results

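The subject of this section is H3K4me3, trimethylation of lysine 4 of histone H3, in mouse embryonic stem cells and in 4 knockout lines made from them. Its members are the autosomal regions of the 5 deposited peak lists made with an H3K4me3 antibody, 211411 regions in all, from 5 of the 95 samples of the series. The wild-type list held 39191 of them, the Pcgf1-/- list 40777, the Pcgf2/4-/- list 46589, the Pcgf3/5-/- list 40563 and the Pcgf6-/- list 44291. Each genotype had 1 list, so the differences between lists carry no replicate check and no p-value.

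The study mapped Polycomb proteins and histone marks, and counted RNA, in E14 mouse embryonic stem cells that lack different Pcgf genes. All groups used here shared the E14 parent and were grown on gelatin in serum with leukaemia inhibitory factor and with the inhibitors CHIR99021, of GSK3β, and PD0325901, of MEK1/2. The knockout lines were clones made with Cas9 and guide plasmids, with no Cre or transgene driver. Pcgf2/4-/- lacked 2 genes (Pcgf4 is also called Bmi1), Pcgf3/5-/- lacked 2 genes, and both were made by further editing of clones that already lacked 1 gene. Clonal differences cannot be told apart from the genotype. RNA came from 2 libraries for each of the 5 genotypes. The RNA libraries and the peak list named Pcgf6-/- were not shown by the labels to come from the same clone.

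H3K4me3 is deposited by SET1 and MLL methyltransferases and marks the start sites of active genes and of most CpG-rich promoters. The Polycomb repressive complex PRC1 holds RING1A or RING1B together with a PCGF protein, and adds ubiquitin to histone H2A. PCGF6 forms a variant PRC1 with MGA, MAX, E2F6 and L3MBTL2 that is known in embryonic stem cells for repressing genes of meiosis and the germ line, whereas PCGF2 and PCGF4 sit in the canonical complexes that read H3K27me3.

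A promoter was the stretch within 1 kb of any protein-coding transcript start of an autosomal protein-coding gene, 21418 in all. A promoter gained a peak when the line's list overlapped it and the wild-type list did not, and lost one in the opposite case. The promoters at which the results turn most clearly are those that carried a PCGF6 peak in wild-type cells and gained H3K4me3 in Pcgf6-/- cells, and 6 of these 26 are shown here as the 250 bases before the annotated start, in build NCBIM37, 5′ to 3′ on the gene's strand. Capitals mark the letters CACGTG, the E-box that MGA and MAX are known to bind, and GCGGGAA, an E2F-type motif, both searched on both strands. Positions count back from the start, with -1 as the base before it and the first letter of a match as its position. The first 4 hold at least 1 match, and the last 2 hold none and are shown for contrast.
Ddx4, chr13:113442519-113442768, minus strand: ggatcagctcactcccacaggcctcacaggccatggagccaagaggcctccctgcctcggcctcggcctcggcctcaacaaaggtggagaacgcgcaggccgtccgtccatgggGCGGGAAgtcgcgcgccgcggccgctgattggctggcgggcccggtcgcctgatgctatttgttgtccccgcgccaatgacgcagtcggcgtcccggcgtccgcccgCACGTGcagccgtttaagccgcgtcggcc
Tex12, chr9:50369374-50369623, minus strand: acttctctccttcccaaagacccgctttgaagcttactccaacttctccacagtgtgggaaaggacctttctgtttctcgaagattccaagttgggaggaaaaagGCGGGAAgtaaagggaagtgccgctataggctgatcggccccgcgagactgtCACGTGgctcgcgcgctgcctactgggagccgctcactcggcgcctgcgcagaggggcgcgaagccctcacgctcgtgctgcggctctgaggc
Slc25a31, chr3:40512527-40512776, plus strand: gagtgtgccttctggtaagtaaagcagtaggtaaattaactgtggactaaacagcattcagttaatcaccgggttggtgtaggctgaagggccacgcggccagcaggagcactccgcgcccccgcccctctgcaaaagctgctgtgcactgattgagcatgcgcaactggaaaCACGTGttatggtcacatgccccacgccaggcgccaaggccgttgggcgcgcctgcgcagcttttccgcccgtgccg
Tdrd9, chr12:113209520-113209769, plus strand: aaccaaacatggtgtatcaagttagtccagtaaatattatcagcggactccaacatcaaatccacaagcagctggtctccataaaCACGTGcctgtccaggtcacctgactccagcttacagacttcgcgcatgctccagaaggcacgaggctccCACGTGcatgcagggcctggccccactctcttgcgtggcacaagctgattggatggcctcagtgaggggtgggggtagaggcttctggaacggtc
Tex101, chr7:25457070-25457319, minus strand: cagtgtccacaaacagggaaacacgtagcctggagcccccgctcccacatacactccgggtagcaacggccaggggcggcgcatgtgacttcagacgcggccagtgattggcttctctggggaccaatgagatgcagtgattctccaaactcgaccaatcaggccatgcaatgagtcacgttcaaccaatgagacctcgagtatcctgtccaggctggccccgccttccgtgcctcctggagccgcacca
Sycp2, chr2:178142391-178142640, minus strand: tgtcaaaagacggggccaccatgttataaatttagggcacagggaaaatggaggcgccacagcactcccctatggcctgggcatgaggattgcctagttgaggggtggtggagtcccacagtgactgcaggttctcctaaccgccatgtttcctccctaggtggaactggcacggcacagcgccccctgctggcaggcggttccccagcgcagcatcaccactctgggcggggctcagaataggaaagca

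The Ddx4 sequence held the E2F-type letters at -136 and the E-box at -29, and the Tex12 sequence held them at -145 and -93. The Slc25a31 sequence held an E-box at -77, and that of Tdrd9 held E-boxes at -165 and -95. In the 250 bases before the start, the E-box occurred at 6.52% of all 21418 promoters and the E2F-type letters at 4.63%, with either at 10.8%. Among all 1122 promoters with a wild-type PCGF6 peak, either motif occurred at 23.1%. Of the 26 promoters that also gained H3K4me3 in Pcgf6-/- cells, 8 (30.8%) held either motif, whereas 8.98% of the 501 gained promoters without a PCGF6 peak did. These matches are a description of letters, and most PCGF6-bound promoters held neither in these 250 bases.

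The 5 lists were alike in their lower limit, with a lowest −log10 q between 8.13 and 8.24, but not in overall strength. At promoters with a peak in wild-type and in the line, the −log10 q was higher in the line at 90.7% in Pcgf1-/-, 88.8% in Pcgf2/4-/-, 87.3% in Pcgf3/5-/- and 95% in Pcgf6-/-, by a median ratio of 1.53, 1.43, 1.27 and 1.44. A higher −log10 q in a line is therefore read here only against these shares, and the part of list strength in the gained and lost counts was not tested. Promoters of all 6 embryonic stem cell markers, Pou5f1, Nanog, Sox2, Zfp42, Esrrb and Klf4, carried a peak in all 5 lists. The 10 RNA libraries held between 2764111 and 7848161 counts. The 2 wild-type libraries differed by less than the sampling noise, with a chi-square of 0.958 per degree of freedom against 1.89 to 19.5 for the pairs of the lines, so their spread is technical at most and they count as 1 sample for levels. The fit still took them as 2 libraries, so its SEs and p-values rest in part on that spread. Pcgf1 fell from 66.1 and 61.0 CPM (counts scaled to library size) to 4.81 and 3.20 in Pcgf1-/-, Pcgf6 from 36.2 and 34.3 to 0 and 0 in Pcgf6-/-, and Pcgf5 from 13.0 and 10.8 to 5.48 and 4.60 in Pcgf3/5-/-. Pcgf5 was as low in Pcgf1-/- (5.36 and 4.12) and Pcgf2/4-/- (3.77 and 5.88), and higher in Pcgf6-/- (40.3 and 44.3). Its fall was thus not particular to the line that lacks it. Transcripts of Pcgf2, Bmi1 and Pcgf3 did not pass the test in the lines that lack them (adjusted p = 0.601, 0.535 and 0.242), so RNA levels do not show those knockouts. The series also has a PCGF2 list from Pcgf2/4-/- and a PCGF3 list from Pcgf3/5-/-, which were not used for this. The labels are taken here from the submitters.

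H3K4me3 was at the same promoters in most lists: 13232 promoters had a peak in all 5 and 6850 in none. Of the 7510 promoters without a wild-type peak, 527 (7.02%) gained one in Pcgf6-/-, against 245 (3.26%) in Pcgf2/4-/-, 168 (2.24%) in Pcgf1-/- and 153 (2.04%) in Pcgf3/5-/-. Of the 13908 promoters with a wild-type peak, 417 (3.00%) lost it in Pcgf3/5-/-, 342 (2.46%) in Pcgf1-/-, 262 (1.88%) in Pcgf2/4-/- and 207 (1.49%) in Pcgf6-/-. With these definitions gains exceeded losses in the Pcgf6-/- list alone, and Pcgf3/5-/- had the fewest gains and the most losses. The order turned for Pcgf2/4-/- when only peaks with a −log10 q of at least 10 were kept (273 gained and 251 lost), when an overlap of 200 bases was required (261 and 257) and for peaks of at least 20 (71 and 56). Pcgf1-/- had fewer gains than Pcgf3/5-/- with a 2.5 kb window (162 and 167) and for peaks of at least 20 (33 and 51). All 4 comparisons share the wild-type list, and 37 promoters had a peak in every list but that one, while 53 had it there alone. A peak was found in 1 line and in no other list at 283 promoters in Pcgf6-/-, 39 in Pcgf3/5-/-, 27 in Pcgf1-/- and 26 in Pcgf2/4-/-.

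**Figure D1:**
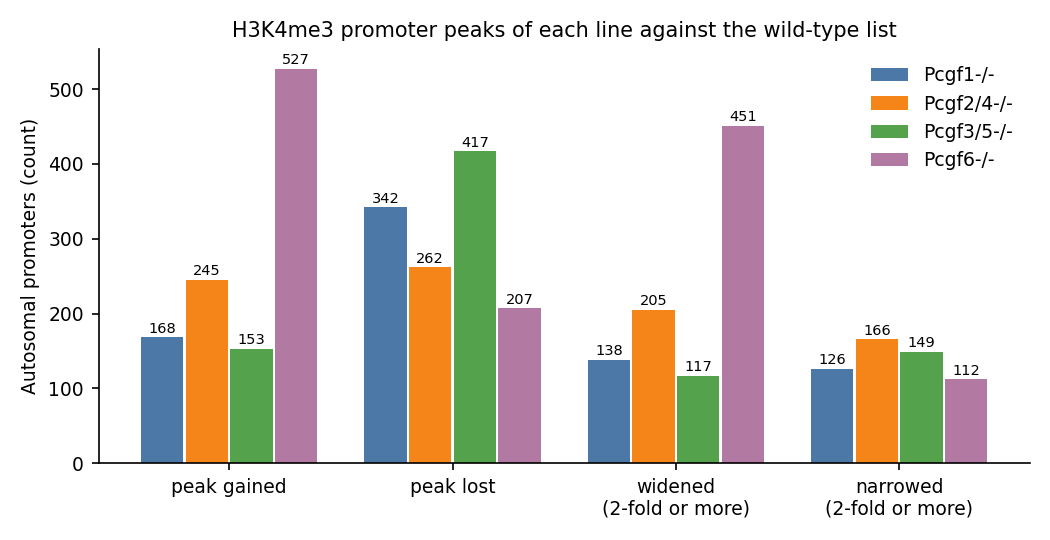
Number of autosomal promoters (vertical axis) that gained a peak, lost a peak, or kept a peak that widened or narrowed at least 2-fold, with 1 bar for each line against the wild-type list. The Pcgf6-/- bars are the highest for gained (527) and widened (451), and the Pcgf3/5-/- bar is the highest for lost (417).

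Gained peaks were mostly weak. Their median −log10 q was 21.6 in Pcgf6-/-, 15.1 in Pcgf3/5-/-, 14.2 in Pcgf2/4-/- and 13.6 in Pcgf1-/-, where peaks at promoters that had one in both lists had medians between 214 and 256 in the lines. With a −log10 q of at least 20 required, 284, 51, 71 and 33 gained promoters were left in the same order. No wild-type peak lay within 2.5 kb of the start at 454, 108, 207 and 115 of the gained promoters, and at the rest a nearby wild-type peak did not reach the 1 kb window. The highest gained peaks, with a −log10 q of 354.36, 313.67, 390.28 and 416.77 in the same order, were among that rest. The genes named below for the strength of a gained peak are the strongest among promoters with no wild-type peak within 2.5 kb.

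In Pcgf6-/- cells, the gained promoters with the strongest peaks and no wild-type peak within 2.5 kb were Alpk1, which encodes a kinase of innate immune sensing, Dydc1, Slc7a8, an amino acid transporter, Glra3, a glycine receptor subunit, Zfp677, a zinc-finger protein, and Ereg, a ligand of the epidermal growth factor receptor. The Alpk1 peak (gene at chr3:127373317-127483445) had a −log10 q of 191.77 in Pcgf6-/- and 33.58 in Pcgf2/4-/-, and none was listed in the other 3 lists. Alpk1 RNA went from 0 counts in both wild-type libraries to 6.72 and 3.83 CPM in Pcgf6-/-, at least 8.95-fold higher (adjusted p = 9.66e-05 in edgeR's quasi-likelihood test, Benjamini-Hochberg adjusted as all p-values here, but 0.299 by DESeq2). A fold against a group at 0 is given as a lower bound, from the lowest library of the other group against a floor of 3 counts in each library at 0. Zfp677, with a −log10 q of 114.33, rose from 5.85 and 3.94 CPM to 27.6 and 25.6, a log2 difference of 2.44 ± 0.23 (SE, adjusted p = 1.22e-06). For Slc7a8 the peak reached 137.3 and RNA rose from 5.56 and 5.20 to 10.2 and 10.4 CPM (log2 difference 0.93 ± 0.25, adjusted p = 0.00708, and 0.059 without wild-type replicate 2). The libraries of the 2 groups did not overlap at any of these 3 genes. The share of all genes without such overlap is not given here, so this and later statements of separation only describe the values. A strong new peak was also seen with no RNA to speak of: Glra3 (116.44) and Ereg (107.52) had 0 counts in all 4 libraries, and Dydc1 (164.58) had 0.124 CPM in 1 Pcgf6-/- library and 0 in the other 3.

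Of the 527 gained promoters in Pcgf6-/-, 469 had a gene in the count table, and 174 of these (37.1%) were raised, against 19.2% of all 19330 autosomal genes in the table, while 24 (5.12%) were lowered, against 13.8%. In bulk RNA, more cells that express a gene and more RNA per cell cannot be told apart. By RNA, the 6 that rose most among the gained and raised genes were Herc6, a HERC-family ubiquitin ligase, Ptpn20, a tyrosine phosphatase, Il1r2, the decoy receptor for interleukin 1, Sycp2, a component of the meiotic chromosome axis, Cr2, a complement receptor, and Myt1l, a neuronal transcription factor. All 6 had 0 counts in both wild-type libraries. Herc6 had 33.2 and 35.5 CPM in Pcgf6-/-, at least 77.7-fold higher (adjusted p = 1.01e-08), with a gained peak of 53.23. Ptpn20 had 32.5 and 33.6 CPM, at least 75.9-fold higher (adjusted p = 1.52e-08), with a peak of 79.45. Il1r2, Sycp2, Cr2 and Myt1l were at least 51.9-, 47.1-, 28.6- and 19-fold higher, with gained peaks of 72.49, 71.07, 39.2 and 32.12. These genes were ranked by their RNA change, so that its size describes how they were chosen.

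Markers of other lineages also moved in the Pcgf6-/- RNA. Of all genes tested, 27.8% were raised and 18.6% lowered. Of 10 trophoblast markers, 7 were raised and 2 lowered, and their summed level was 538 to 548 CPM in Pcgf6-/- against 297 to 316 in wild-type; Krt8 reached 216 and 235 CPM from 95.6 and 103, while Cdx2, which specifies trophectoderm, fell to 4.61 and 6.13 from 71.1 and 77.8. Of 10 primitive endoderm markers, 7 were tested, 3 were raised and none lowered, with sums of 403 to 414 against 307 to 310 CPM; Dab2, an endocytic adaptor, went from 0 and 0 to 42.5 and 38.5 CPM (adjusted p = 1.92e-08), and Col4a1 and Pdgfra were raised by log2 differences of 2.80 ± 0.21 and 2.04 ± 0.33. Of the defining factors, Gata6 went from 0 and 0 to 2.12 and 1.07 CPM, without passing the filter of the test, and Gata4 and Sox17 stayed under 1 CPM. The 6 fibroblast markers summed to 27 to 30.6 against 10.8 to 15.0 CPM, 3 of 4 tested were raised, and Dcn was at 0 in every wild-type and Pcgf6-/- library. The 8 mesendoderm markers summed to 10.8 to 11.2 against 52.0 to 57.5 CPM, and the 7 neural markers to 76.3 to 88.9 against 87.3 to 87.6 CPM. Among the latter, Nes, nestin, rose from 4.57 and 2.81 to 20.3 and 16.5 CPM (2.32 ± 0.26, adjusted p = 4.8e-06), Tubb3, a neuronal tubulin that made up most of the sum, fell by 0.36 ± 0.13 on the log2 scale (adjusted p = 0.0407), and Olig2 was at 0. Their part in the gained peaks was not tested.

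A wild-type PCGF6 peak was present at 1122 promoters, of which 29 had no wild-type H3K4me3 peak, and 26 of these 29 (89.7%) gained one in Pcgf6-/-, against 7.02% of all promoters without a wild-type peak. Promoters with wild-type RING1B were also far above that share, with 63 of 84 (75%) gaining a peak. The same 29 gained it at 7 (24.1%), 10 (34.5%) and 2 (6.9%) promoters in Pcgf1-/-, Pcgf2/4-/- and Pcgf3/5-/-. Of all promoters without a wild-type peak, 2.24%, 3.26% and 2.04% gained one in these lines. The 84 with RING1B gained it at 35.7%, 34.5% and 13.1% in the same order. A high share of gains at these promoters was thus not particular to Pcgf6-/-, though it was highest there. Of the 26, 24 had a gene in the count table, and 19 of these (79.2%) were raised in Pcgf6-/- and 0 lowered, against 19.2% and 13.8% of all genes in the table. The filter on low counts was passed by 20, some of them with few wild-type counts. RING1B was at 14 of the 26 promoters in wild-type cells and at 2 of those 14 in Pcgf6-/-. The genes named from these 26 were chosen after their values were seen.

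Of the 26, 4 are in the list of germline genes described below: Ddx4, Slc25a31, Tex101 and Mei1. Ddx4, the germ cell RNA helicase Vasa (chr13:113388541-113442518), had a −log10 q of 0 (no peak) in wild-type and Pcgf3/5-/-, 9.51 in Pcgf1-/-, 12.67 in Pcgf2/4-/- and 50.58 in Pcgf6-/-. Its RNA was at 16.1 and 15.2 CPM in wild-type and 224 and 250 in Pcgf6-/-, a log2 difference of 3.92 ± 0.13 (adjusted p = 1.14e-10), and it was lower than wild-type in Pcgf2/4-/- (6.28 and 8.82 CPM, adjusted p = 0.00137, and 0.0887 in the fit of these 2 groups alone), where its promoter had also gained a weak peak. A gained peak at Ddx4 thus went with higher RNA in 1 line and with lower RNA in another. Slc25a31, the ADP/ATP carrier of male germ cells, had a peak in Pcgf6-/- alone (67.69), and its RNA went from 3.85 and 4.78 to 180 and 196 CPM (log2 difference 5.44 ± 0.18, adjusted p = 1.14e-10). Ctcfl, the testis paralogue of CTCF (chr2:172919110-172945026), also had its peak in Pcgf6-/- alone (21.62), with RNA at 1.14 and 1.27 CPM in wild-type and 89.9 and 89.9 in Pcgf6-/- (6.20 ± 0.19, adjusted p = 1.01e-10). Wild-type and Pcgf6-/- libraries were far apart at all 3 genes.

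Genes of the synaptonemal complex, the protein lattice that joins homologous chromosomes in meiosis, were among the 26 as well. Tex12 had a Pcgf6-/- peak of 40.33 and rose from 3.14 and 4.22 to 53.7 and 60.7 CPM (3.95 ± 0.20, adjusted p = 2.46e-09), and Syce3 had a peak of 28.22 and rose from 3.00 and 2.95 to 27.1 and 25 CPM (3.12 ± 0.25, adjusted p = 1.78e-07). Both had RING1B in wild-type and not in Pcgf6-/-, and neither had a peak in the other 3 lines. Mei1, required for meiotic recombination, gained a peak of 76.67 in Pcgf6-/- and 12.37 in Pcgf2/4-/-. Its RNA was 1.85 and 2.39 CPM in wild-type, 13.1 and 11 in Pcgf6-/- (2.5 ± 0.30, adjusted p = 5.64e-05), and 0 in all 6 libraries of the other 3 lines. Mei1 kept its RING1B peak in Pcgf6-/-, 1 of the 2 promoters that did.

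Tex101, a surface glycoprotein of germ cells whose promoter held neither motif, had a peak of 27.17 in Pcgf6-/- alone and rose from 14.6 and 15.8 to 113 and 118 CPM (2.93 ± 0.16, adjusted p = 6.27e-09). Tdrd9, a helicase of the piRNA pathway with E-boxes, had a weaker peak of 11.11 and rose from 6.42 and 3.80 to 26.3 and 26.5 CPM (2.36 ± 0.26, adjusted p = 4.49e-06). Both genes rose, with libraries of the 2 groups far apart. Zbtb32, a zinc-finger repressor, was the only tested member that was not called: it had the strongest peak of the 26, 98.46 over 6621 bases, and also peaks between 8.65 and 25.57 in the other 3 lines, but its RNA was at 41.8 and 43.2 CPM in wild-type and 58.0 and 51.9 in Pcgf6-/- (0.37 ± 0.19, adjusted p = 0.124, but 9.13e-06 in the fit of these 2 groups alone). Spo11, which makes the DNA breaks of meiosis, gained a peak of 13.48 and was at 1.24 and 0.46 CPM in Pcgf6-/- and 0 in wild-type, below the filter of the test.

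A list of 22 genes of meiosis and the germ line, 20 of them autosomal, shows how the same promoters behaved in every line; it was drawn up with earlier results of these libraries known, so its direction is no independent evidence. A peak was present at 16 of the 20 in wild-type, 14 in Pcgf1-/-, 18 in Pcgf2/4-/-, 8 in Pcgf3/5-/- and 20 in Pcgf6-/-. In Pcgf6-/- 4 promoters gained a peak (Ddx4, Tex101, Slc25a31 and Mei1) and 8 widened at least 2-fold, and 20 of 22 genes were raised and 1 lowered, against 27.8% raised and 18.6% lowered among all 15464 genes tested, with a median log2 difference of 3.20 against 0.026. In Pcgf3/5-/- no promoter of the list gained a peak and 8 lost theirs, with 10 of 22 genes raised and 5 lowered, against 11.1% and 10.4% of all genes tested (median log2 difference 0.30 against 0). In Pcgf1-/- 1 gained and 3 lost a peak, with 5 genes raised and 7 lowered against 13.9% and 18.4%. In Pcgf2/4-/- 2 gained and none lost a peak, with 4 raised and 5 lowered against 8.10% and 13.5%. The median differences in these 2 lines were -0.11 and -0.16, against -0.05 and 0. Of all promoters without a wild-type peak, 2.24%, 3.26%, 2.04% and 7.02% gained one in Pcgf1-/-, Pcgf2/4-/-, Pcgf3/5-/- and Pcgf6-/-. Of all with a wild-type peak, 2.46%, 1.88%, 3.00% and 1.49% lost it. Of all with a peak in both lists, 3.29% widened at least 2-fold in Pcgf6-/-.

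**Figure D2:**
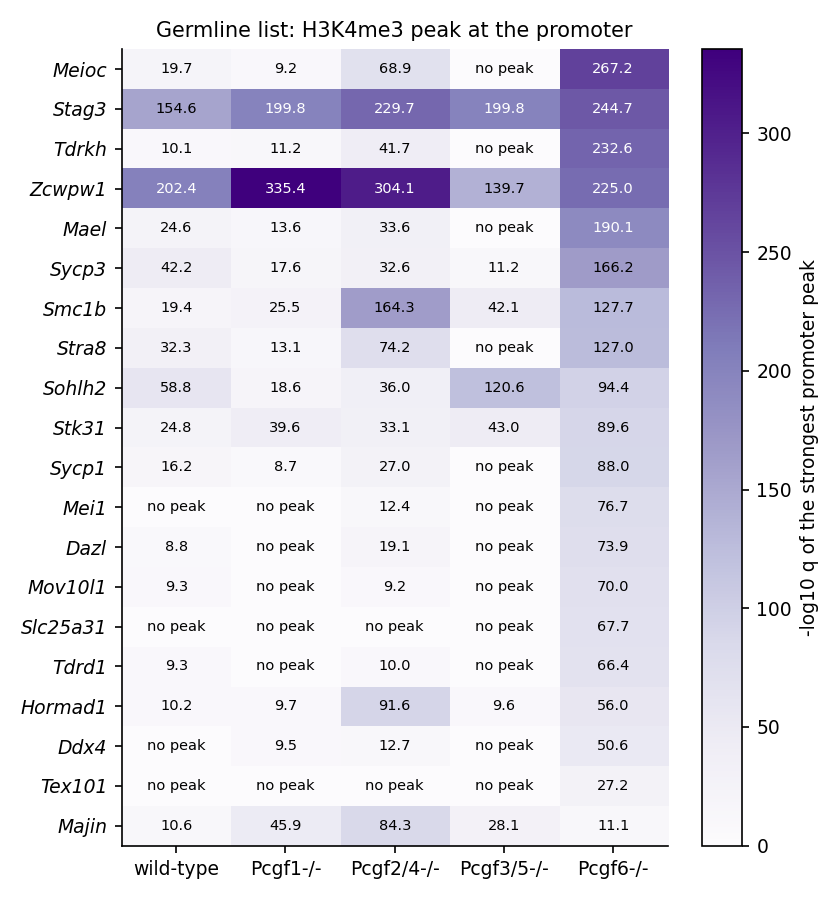
Strength (−log10 q) of the strongest H3K4me3 peak at the promoters of 20 autosomal genes of the germline list, 1 row for each gene and 1 column for each list, darker for stronger peaks. Every promoter has a peak in Pcgf6-/-, and 12 have none in Pcgf3/5-/-.

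Mael, a piRNA pathway protein, had a −log10 q of 24.63 in wild-type, 13.62 in Pcgf1-/-, 33.58 in Pcgf2/4-/-, no peak in Pcgf3/5-/- and 190.05 in Pcgf6-/-. Its RNA was at 20.1 and 23.9 CPM in wild-type, fell to 5.48 and 5.18 in Pcgf3/5-/- (-2.04 ± 0.18, adjusted p = 3.05e-06) and rose to 194 and 220 in Pcgf6-/- (3.23 ± 0.13, adjusted p = 4.07e-10). Peak and RNA thus moved together at Mael in these 2 lines. They did so in Pcgf1-/- as well, where RNA was at 7.43 and 6.17 CPM (-1.66 ± 0.17, adjusted p = 8.43e-06). In Pcgf2/4-/- the peak was stronger, as at 88.8% of promoters with a peak in both lists, but Mael RNA was lower. It was at 12.6 and 15.2 CPM there (-0.62 ± 0.16, adjusted p = 0.0128). Tdrkh, another piRNA pathway protein, also had no peak in Pcgf3/5-/- and one of 232.61 in Pcgf6-/- against 10.13 in wild-type, but its RNA, 7.13 and 3.24 CPM in wild-type, was not called in Pcgf3/5-/- (3.88 and 3.64, adjusted p = 0.343, and 0.0276 with a lower level without wild-type replicate 2) and rose in Pcgf6-/- to 137 and 148 (4.77 ± 0.20, adjusted p = 4.89e-10). Stra8, the retinoic-acid-induced factor of meiotic entry, lost its wild-type peak of 32.32 in Pcgf3/5-/- while its RNA rose from 5.28 and 6.47 to 9.76 and 8.05 CPM (0.61 ± 0.17, adjusted p = 0.0222). That call was lost without wild-type replicate 1 (adjusted p = 0.203), without Pcgf3/5-/- replicate 1 (0.304), in the fit of these 2 groups alone (0.0918) and, narrowly, with no filter on low counts (0.0514). Stra8 RNA was also higher in Pcgf1-/- (27.5 and 29.7 CPM, 2.27 ± 0.15, adjusted p = 1.84e-07), where its peak was weaker than in wild-type, at 13.12. A change of peak and a change of RNA therefore went opposite ways at Stra8 in Pcgf1-/-, and in Pcgf3/5-/- as far as that call holds. Smc1b, the meiotic cohesin subunit, had a peak of 164.29 in Pcgf2/4-/- against 19.43 in wild-type, with RNA at 1.26 and 3.83 CPM in that line against 3.85 and 4.22 in wild-type, a difference that was not called (adjusted p = 0.534).

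In Pcgf3/5-/- cells, all 6 of the strongest gained peaks with no wild-type peak within 2.5 kb were at genes whose RNA was also higher. Dnajc5g, a J-domain chaperone (chr5:31410692-31414897), had a peak of 98.35 in this list alone, and its RNA went from 5.56 and 5.34 to 34.6 and 30.9 CPM (2.58 ± 0.23, adjusted p = 3.05e-06). Nckap1l, a blood-cell subunit of the WAVE actin regulator, had a peak of 52.24 in this list alone and rose from 14.3 and 14.6 to 87.6 and 74.8 CPM (2.49 ± 0.17, adjusted p = 4.23e-07). For 4933427D06Rik the peak was 58.17, against 10.81 in Pcgf2/4-/- and 19.16 in Pcgf6-/-, and RNA went from 0.285 and 0.281 to 10.8 and 11.1 CPM (5.16 ± 0.41, adjusted p = 2.36e-06). Libraries of the 2 groups did not overlap at these genes. The other 3 of the strongest 6, Nat2, an acetyltransferase (64.48), Tifab (54.98) and Pramel6, of the Prame-like family (45.97), were raised by log2 differences of 1.60 ± 0.26, 2.00 ± 0.36 and 1.83 ± 0.15. Nckap1l, Tifab and Pramel6 also rose in Pcgf6-/-, with no peak listed there. Their log2 differences in that line were 2.15 ± 0.17, 1.52 ± 0.37 and 2.83 ± 0.15. Dnajc5g, also without a peak in Pcgf6-/-, was not called there (0.28 ± 0.26, adjusted p = 0.437). Pramel6 has close paralogues among which the authors' counting could split reads, so its level is uncertain.

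Of the 153 gained promoters in Pcgf3/5-/-, 131 had a gene in the count table, and 40 (30.5%) were raised, against 7.86% of all such genes, with 9 (6.87%) lowered, against 7.53%. Where the peak was in this line alone, 19 of 36 genes were raised (52.8%), and where another line had it as well, 21 of 95 (22.1%). Among the raised genes ranked by RNA were Grap, an adaptor of receptor signalling, and Parvg, an adhesion protein of blood cells, each with 2 counts in the wild-type libraries together. Grap went from 0.285 and 0 to 16.8 and 14.8 CPM, a ratio of 113 (95% interval for counting error 30.8 to 938), with a peak of 26.65 in this list alone. Parvg went from 0.285 and 0 to 15.8 and 13.6 CPM, a ratio of 105 (28.7 to 874), with a peak of 11.46 in this list alone. Nr2e3, a photoreceptor nuclear receptor, rose with a peak of 20.1 and a ratio of 18.2 (5.86 to 91.1), 1700019A02Rik with a peak of 9.17 and a log2 difference of 4.84 ± 0.43, and the kinase Dyrk4 with a peak of 11.79 and a log2 difference of 3.22 ± 0.63. Grap, Nr2e3 and 1700019A02Rik were also raised in Pcgf6-/-, with no peak listed there. They had 6.22 and 2.14, 2.24 and 2.6, and 46.3 and 51.0 CPM in that line. Parvg, also without a peak in Pcgf6-/-, was not called there (adjusted p = 0.842). Dyrk4 had stronger peaks in Pcgf2/4-/- (48.8) and Pcgf6-/- (60.37), and its RNA in Pcgf2/4-/- did not pass the test (0.419 and 1.53 CPM against 0.428 and 0.141 in wild-type, adjusted p = 0.0829, and 0.0448 without Pcgf2/4-/- replicate 1).

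In Pcgf1-/- cells, the gained promoters were no richer in raised genes than the table as a whole: 15 of 147 (10.2%) were raised, against 10.2% of all genes, and 21 (14.3%) were lowered, against 13.0%. The share of raised genes came to 5.44% without Pcgf1-/- replicate 1 and to 15.0% without replicate 2. Among gained promoters with no wild-type peak within 2.5 kb, Tmem59l had the strongest peak, 44.23, and peaks of 25.95 in Pcgf3/5-/- and 14.34 in Pcgf6-/-, on a promoter with wild-type RING1B and H3K27me3. Its RNA rose from 4.99 and 4.64 to 16.3 and 14.6 CPM (1.69 ± 0.23, adjusted p = 0.000106). The acrosomal gene Acrbp (35.69), with 11.6 and 14.1 CPM in wild-type against 13.8 and 13.7 (adjusted p = 0.766), and Palm3 (27.64), with 24.8 and 23.1 CPM in wild-type against 17.5 and 16.7 (adjusted p = 0.0648), were not called. Astn2, a neuronal membrane protein, gained peaks between 23.3 and 25.86 in all 4 lines, and its RNA stayed at or under 0.143 CPM in the wild-type and Pcgf1-/- libraries. Gm17488 (40.64) and D130062J21Rik (25.8) had no matched gene in the count table. Among the 15 raised genes were Adcy6, an adenylyl cyclase (61.74, with a wild-type peak nearby outside the promoter window, 2.12 ± 0.46, adjusted p = 0.00319), Trim50, a ubiquitin ligase (9.92, 2.79 ± 0.44, adjusted p = 0.000303), and Sorbs3, the adhesion protein vinexin (11.73, 1.91 ± 0.36, adjusted p = 0.00117). Plekhg4 had a gained peak of 19.85 and rose from 0 and 0.422 to 3.39 and 2.74 CPM, a ratio of 15.0 (4.79 to 75.4). It also gained a peak of 95.69 in Pcgf6-/-, where its RNA was at 18.8 and 15.3 CPM, a ratio of 81.1 (27.4 to 396).

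In Pcgf2/4-/- cells, 9 of 221 genes at gained promoters (4.07%) were raised, against 5.83% of all genes, and 31 (14%) were lowered, against 9.74%. The raised share came to 6.79% without Pcgf2/4-/- replicate 1, the library with the fewest counts, and to 1.81% without Pcgf2/4-/- replicate 2 or without either wild-type replicate. With no wild-type peak within 2.5 kb, the strongest gained peaks were at Rsph10b2 (51.12), Dyrk4 (48.8), Gm17688 (43.36), the antiviral gene Oas2 (42.1), Gm20537 (41.89) and Wdr69 (41.02). No RNA change was called at any of the 3 that were tested: Dyrk4, Oas2 (10.1 and 8.16 CPM in wild-type against 5.03 and 9.07, adjusted p = 0.622) and Wdr69, which had 0 counts in these 4 libraries. Among the raised genes were Ldhd, D-lactate dehydrogenase, with a peak of 27.71 and RNA from 5.56 and 5.63 to 12.6 and 27.5 CPM (1.97 ± 0.32, adjusted p = 0.000791), and the neighbouring glutathione transferase genes Gstm6 and Gstm7. Gstm6 had a peak of 14.11 and rose from 22.8 and 20.8 to 50.3 and 56.1 CPM (1.30 ± 0.15, adjusted p = 5.43e-05), and Gstm7 a peak of 25.22 and rose from 9.13 and 7.03 to 13.8 and 20.2 CPM (1.15 ± 0.26, adjusted p = 0.00661). The call at Gstm7 was lost without wild-type replicate 2 (adjusted p = 0.0794), without Pcgf2/4-/- replicate 2 (0.113) and in the fit of these 2 groups alone (0.0621). Reads of these paralogues can be split between them, so both are uncertain. Hsf5 and Mcoln3 were raised by edgeR (adjusted p = 0.0401 and 0.0224) and not by DESeq2 (adjusted p = 0.0760 and 0.0607). Without Pcgf2/4-/- replicate 2 neither was called (edgeR's adjusted p = 0.325 and 0.218), nor without wild-type replicate 1 (0.158 and 0.103) or 2 (0.163 and 0.103).

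Promoters that lost a peak had weak wild-type peaks, with a median −log10 q between 12.6 and 14.1 over the 4 lines, and only 55 (Pcgf1-/-), 56 (Pcgf2/4-/-), 87 (Pcgf3/5-/-) and 57 (Pcgf6-/-) of them had a wild-type peak of at least 20. Of the lost promoters with a gene in the table, 53 of 318 (16.7%) were lowered in Pcgf1-/-, against 13.0% of all genes, 35 of 240 (14.6%) in Pcgf2/4-/-, against 9.74%, 39 of 393 (9.92%) in Pcgf3/5-/-, against 7.53%, and 36 of 180 (20.0%) in Pcgf6-/-, against 13.8%. Raised genes at lost promoters numbered 27 (8.49%), 16 (6.67%), 29 (7.38%) and 37 (20.6%) in the same order. Of all genes in the table, 10.2%, 5.83%, 7.86% and 19.2% were raised. Loss of a peak thus went with lowered RNA at a minority of promoters in every line.

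The highest wild-type peak at a lost promoter had a −log10 q of 190.03 in Pcgf1-/-, Pcgf2/4-/- and Pcgf3/5-/- and 274.72 in Pcgf6-/-, each with a peak of the line within 2.5 kb. The lost peaks named here for their strength had no peak of the line within that distance, and both outcomes were among them. In Pcgf1-/-, Cntnap2, a neurexin-family adhesion protein (chr6:45010060-47251368), had a wild-type peak of 49.49 and peaks between 36.79 and 56.98 in the other 3 lines, and its RNA fell from 23.8 and 21.5 to 3.94 and 1.60 CPM (-2.86 ± 0.25, adjusted p = 2.69e-06). Pdcl2 lost a peak of 38.33 in the same line and had 22.7 and 23.3 CPM in wild-type against 23.8 and 20.8 (adjusted p = 0.984), with overlapping libraries. Rnf43, a ubiquitin ligase that removes Wnt receptors, lost its wild-type peak of 40.07 in Pcgf1-/- and in Pcgf3/5-/- and had a peak of 121.44 in Pcgf6-/-. Its RNA was at 2.71 and 3.09 CPM in wild-type, 1.31 and 0.914 in Pcgf1-/- (adjusted p = 0.0555, and 0.0413 in the fit of these 2 groups alone) and 0 and 0.192 in Pcgf3/5-/- (adjusted p = 0.00123), where 1 count gave a ratio of 36.9 lower (6.26 to 1490). The extracellular matrix gene Fbln2 lost a peak of 20.47 in Pcgf1-/- and went from 5.42 and 5.49 to 0 and 0 CPM, at least 7.91-fold lower (adjusted p = 2.75e-05). Serpinb6b lost a peak of 12.58 and went from 8.13 and 7.60 to 0.109 and 0 CPM, a ratio of 106 (18.7 to 4240).

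In Pcgf6-/-, 4930481A15Rik lost the strongest peak with no peak of the line within 2.5 kb, 105.16 in wild-type and 73.2 to 171.57 in the other lines, without a called change of RNA (0.713 and 2.25 CPM in wild-type against 2.37 and 1.84, adjusted p = 0.489). Bhmt, betaine-homocysteine methyltransferase, lost a peak of 49.02 and had 146 and 148 CPM in wild-type against 142 and 139 (-0.07 ± 0.14, adjusted p = 0.759). At these promoters RNA continued without a listed H3K4me3 peak. Cldn19, a tight junction claudin, lost a peak of 51.78 and fell from 6.99 and 6.33 to 0.622 and 0.306 CPM (-3.73 ± 0.53, adjusted p = 4.45e-05). The nuclear receptor gene Hnf4a (chr2:163332544-163398646) lost a peak of 20.53, which was also absent in Pcgf2/4-/- and at 61.62 in Pcgf3/5-/-, and went from 21.3 and 17.9 to 0 and 0 CPM, at least 38.9-fold lower (adjusted p = 1.13e-06).

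In Pcgf3/5-/-, Col4a3 and Col4a4, basement membrane collagens with a shared promoter and 1 shared wild-type peak of 64.37, lost it with at most 0.141 CPM in any of the 4 libraries. Tacr3, the neurokinin 3 receptor, lost a peak of 43.59 with 0 counts in all 4. The germ cell gene Rbm46, on a promoter with wild-type RING1B and PCGF6, lost a peak of 13.59 and went from 1.71 and 1.83 to 0 and 0 CPM, at least 2.98-fold lower (adjusted p = 0.000649), and its peak was at 147.98 in Pcgf6-/-. In Pcgf2/4-/-, Pdpn, the glycoprotein podoplanin, lost a peak of 54.58 that was at 34.46, 77.05 and 13.66 in Pcgf1-/-, Pcgf3/5-/- and Pcgf6-/-, and fell from 41.9 and 44.7 to 20.5 and 29.3 CPM (-0.73 ± 0.16, adjusted p = 0.00521, and 0.0772 in the fit of these 2 groups alone). Sepn1, selenoprotein N, lost a peak of 43.0 and went from 3.42 and 3.52 to 0 and 0.383 CPM, a ratio of 11.8 (3.81 to 59.3), and Nos3, endothelial nitric oxide synthase, lost one of 13.59 and went from 3.71 and 1.69 to 0 and 0 CPM, at least 1.34-fold lower (adjusted p = 0.00791, but 0.0504 without wild-type replicate 1 and 0.0671 without Pcgf2/4-/- replicate 2). Arpp21 lost a peak of 38.64 with 0 counts in these libraries.

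Where a promoter had a peak in both lists, its width, taken as the bases covered by peaks within 5 kb of a start, changed little. The median width was 2537 bases in Pcgf1-/-, 2445 in Pcgf2/4-/-, 2486 in Pcgf3/5-/- and 2511 in Pcgf6-/-, against 2319 to 2348 in wild-type at the same promoters. The median log2 ratios of width were 0.077, 0.070, 0.048 and 0.101, with SDs over promoters of 0.340, 0.381, 0.327 and 0.430. The shift of width was thus upward and small in every line. That of peak strength was also upward but larger, with the median ratios of 1.27 to 1.53 given above. After the median was taken off, 451 of 13701 promoters (3.29%) widened at least 2-fold in Pcgf6-/-, against 205 (1.5%) in Pcgf2/4-/-, 138 (1.02%) in Pcgf1-/- and 117 (0.867%) in Pcgf3/5-/-. Narrowing of the same size was seen at 112 (0.817%), 166 (1.22%), 126 (0.929%) and 149 promoters (1.10%) in the same order of lines. Widening outnumbered narrowing in every line except Pcgf3/5-/-, with the greatest excess in Pcgf6-/-.

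**Figure D3:**
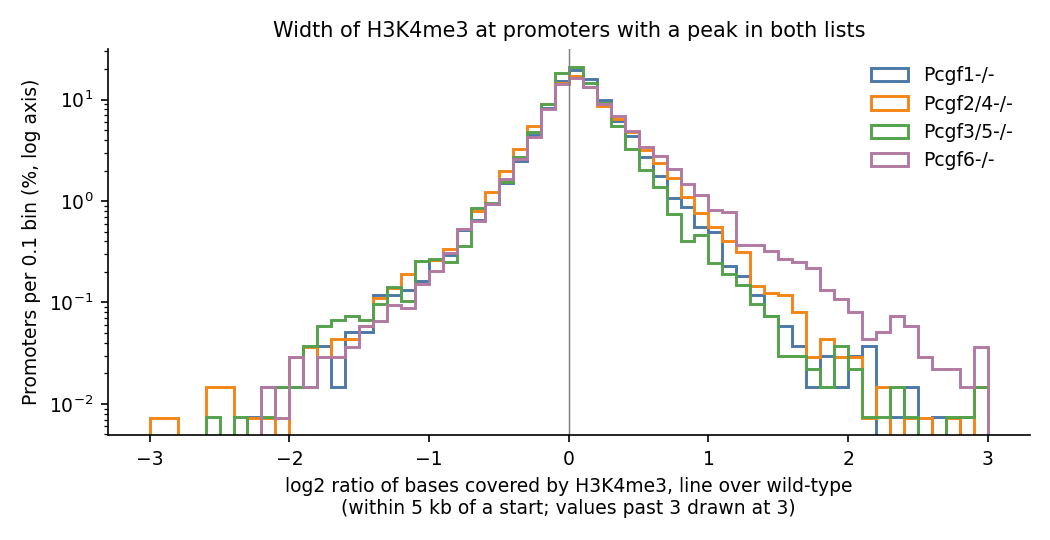
Distribution of the log2 ratio of bases covered by H3K4me3, line over wild-type, at promoters with a peak in both lists (horizontal axis), as the percent of those promoters in each bin of 0.1 (vertical log axis), 1 outline for each line. The outlines nearly coincide around 0, and the Pcgf6-/- outline lies above the others on the right.

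The share of raised genes at widened promoters stood furthest above that of all genes in Pcgf3/5-/- and Pcgf6-/-. In Pcgf6-/-, 171 of 438 genes at widened promoters (39.0%) were raised and 35 (7.99%) lowered, and at narrowed promoters 11 of 106 (10.4%) were raised and 53 (50.0%) lowered, against 19.2% raised and 13.8% lowered of all genes. In Pcgf3/5-/-, 35 of 111 (31.5%) were raised and 7 (6.31%) lowered at widened promoters, and 10 of 144 and 20 of 144 (13.9%) at narrowed ones, against 7.86% and 7.53%. In Pcgf1-/-, widened promoters had 22 raised and 25 lowered genes of 135 (16.3% and 18.5%) and narrowed ones 18 and 32 of 117 (15.4% and 27.4%), against 10.2% and 13.0% of all genes. In Pcgf2/4-/-, they had 13 and 30 of 195 (6.67% and 15.4%) and 18 and 33 of 160 (11.2% and 20.6%), against 5.83% and 9.74%.

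Among promoters with at least 1 kb covered in both lists, Nefm, the medium neurofilament protein, widened most in Pcgf3/5-/-, from 1905 to 6578 bases, and its RNA rose from 19.5 and 20.0 to 72.1 and 68.5 CPM (1.83 ± 0.17, adjusted p = 5.82e-06). Cdh4, R-cadherin, widened there from 1332 to 3880 bases and rose from 18.4 and 21.1 to 54 and 44.7 CPM (1.32 ± 0.19, adjusted p = 0.000292). Both promoters held RING1B and H3K27me3 in wild-type cells. The opposite was seen at 2310046K01Rik, which widened from 1516 to 6523 bases in Pcgf1-/- and fell from 155 and 159 to 51.3 and 42.1 CPM (-1.74 ± 0.14, adjusted p = 1.34e-06). In Pcgf6-/-, Ccnd2, cyclin D2, widened from 1209 to 6000 bases with RNA at 2.43 and 2.39 CPM in wild-type against 4.48 and 4.44 (0.88 ± 0.30, adjusted p = 0.0259, but 0.0795 by DESeq2 and 0.0918 to 0.115 without any 1 of the 4 libraries). Esrp1, an epithelial splicing regulator, widened from 1154 to 4639 bases and went from 0 and 0 to 1.74 and 1.23 CPM, at least 2.86-fold higher (adjusted p = 0.000636). Ddr1, a collagen receptor kinase, widened from 1179 to 4681 bases with 11.3 and 12.2 CPM in wild-type against 10.5 and 11.5 (adjusted p = 0.803).

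Among the most narrowed with the same minimum, Tmem40 went from 9286 to 2087 bases in Pcgf6-/- and from 57.1 and 57.2 to 26.5 and 24.5 CPM (-1.16 ± 0.15, adjusted p = 1.87e-05). Spsb1, a ubiquitin ligase adaptor, went from 4974 to 1496 bases in Pcgf2/4-/- and from 14.7 and 16.2 to 7.96 and 8.05 CPM (-0.94 ± 0.20, adjusted p = 0.00362, and 0.0826 in the fit of these 2 groups alone). Srgap3 narrowed in the same line from 3721 to 1153 bases while its RNA rose from 6.28 and 7.03 to 13.4 and 22.6 CPM (1.53 ± 0.25, adjusted p = 0.000819). Trim13, a ubiquitin ligase, narrowed in Pcgf1-/- (4022 to 1560 bases) and in Pcgf3/5-/- (1363 bases), with RNA higher in the former (0.66 ± 0.10, adjusted p = 0.000287) and lower in the latter (-0.35 ± 0.11, adjusted p = 0.0356, but 0.0526 by DESeq2 and 0.0955 to 0.23 without any 1 of the 4 libraries). Lefty1, an inhibitor of Nodal, narrowed in Pcgf2/4-/- from 4384 to 1334 bases with 29.1 and 29.3 CPM in wild-type against 15.5 and 31.7 (adjusted p = 0.617). Width and RNA thus moved the same way at some of these promoters and apart at others.

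Set against promoters with no H3K4me3 peak in either list, gained promoters more often had a raised gene when all genes of the table are counted. Of the former, 794 of 5495 (14.4%) were raised in Pcgf6-/-, against 37.1% of the gained, and 280 of 5833 (4.80%) in Pcgf3/5-/-, against 30.5%. The shares were 201 of 5817 (3.46%) in Pcgf1-/-, against 10.2%, and 129 of 5743 (2.25%) in Pcgf2/4-/-, against 4.07%. These differences were not tested, and they depend on which genes had enough counts to be tested: over tested genes alone, the shares raised were 58.3% without a peak and 63.7% gained in Pcgf6-/-, 18.3% and 38.8% in Pcgf3/5-/-, 13.1% and 15.8% in Pcgf1-/-, and 8.64% and 6.34% in Pcgf2/4-/-. A gene with few wild-type counts passes that filter mainly if a knockout raises it, so the shares over tested genes support nothing on their own. With a gained peak of at least 20, 112 of 264 (42.4%) were raised in Pcgf6-/- and 20 of 45 (44.4%) in Pcgf3/5-/-.

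**Figure D4:**
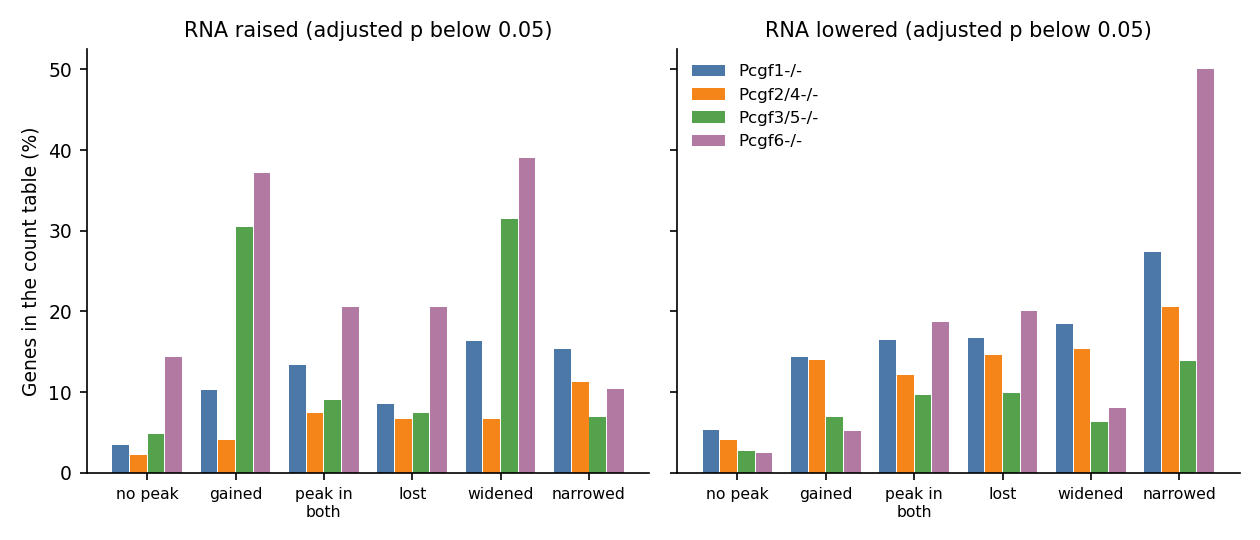
Percent of genes in the count table that were raised (left) or lowered (right) at an adjusted p below 0.05 in each line, for promoters with no peak in either list, a gained peak, a peak in both, a lost peak, and a widened or narrowed peak. Raised shares at gained and widened promoters stand above the other classes in Pcgf3/5-/- (30.5% and 31.5%) and Pcgf6-/- (37.1% and 39.0%).

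Of 3712 raised autosomal genes in Pcgf6-/-, 2707 (72.9%) had a peak in both lists, as did 68.2% of all genes in the table and 92.6% of the lowered ones. Another 794 raised genes (21.4%) had it in neither, 174 (4.69%) gained and 37 lost it, and 2.43% of all genes in the table gained it. Of 1519 in Pcgf3/5-/-, 1170 (77.0%) had it in both, against 67.1% of all genes and 85.9% of the lowered ones, 280 (18.4%) in neither, 40 (2.63%) gained it, against 0.678% of all genes, and 29 lost it. Gained promoters held 15 of 1976 raised genes in Pcgf1-/- (0.759%, against 0.76% of all genes in the table). In Pcgf2/4-/- they held 9 of 1127 (0.799%, against 1.14%). The raised genes at gained promoters had a median log2 difference of 3.63 in Pcgf6-/-, where those with a peak in both had 1.29 and those without a peak 3.35. In Pcgf3/5-/- these medians were 2.15, 1.02 and 2.24.

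Wild-type RING1B, the catalytic subunit of PRC1, was present at 63 of 527 promoters gained in Pcgf6-/- (12.0%), at 29 of 245 in Pcgf2/4-/- (11.8%), at 30 of 168 in Pcgf1-/- (17.9%) and at 11 of 153 in Pcgf3/5-/- (7.19%). It was at 0.301% to 0.992% of promoters with no peak in either list and at 21.7% to 22.2% of those with a peak in both. Gained promoters thus lay between these groups, and so did their CpG content, with a median observed-to-expected ratio of 0.256 to 0.376 against 0.166 to 0.174 and 0.746 to 0.750. Of the gained promoters with wild-type RING1B, 43 of 63 in Pcgf6-/-, 22 of 29 in Pcgf2/4-/-, 27 of 30 in Pcgf1-/- and 8 of 11 in Pcgf3/5-/- still had it in the line. H3K27me3, the mark of PRC2, was at 15.7%, 16.3%, 21.4% and 7.84% of the gained promoters in wild-type cells. At most gained promoters, therefore, neither was listed beforehand.

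RING1B differed between widened and narrowed promoters, and not in 1 direction. In Pcgf6-/-, 219 of 451 widened promoters (48.6%) and 18 of 112 narrowed ones (16.1%) had wild-type RING1B, with H3K27me3 at 42.6% and 16.1%. In Pcgf3/5-/- the order was the opposite, with RING1B at 25 of 117 widened (21.4%) and 72 of 149 narrowed promoters (48.3%), and H3K27me3 at 21.4% and 47.7%. In Pcgf1-/- it was at 49 of 138 (35.5%) and 50 of 126 (39.7%), and in Pcgf2/4-/- at 43 of 205 (21.0%) and 56 of 166 (33.7%). Promoters with a peak in both lists, at 21.7% to 22.2%, were thus above the narrowed ones in Pcgf6-/- and close to the widened ones in Pcgf2/4-/- and Pcgf3/5-/-. Lost promoters held RING1B at 27.1% in Pcgf3/5-/- and 4.35% in Pcgf6-/-, against 15.5% in Pcgf1-/- and 14.1% in Pcgf2/4-/-. No test of these differences was made, since each line has 1 list.

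**Figure D5:**
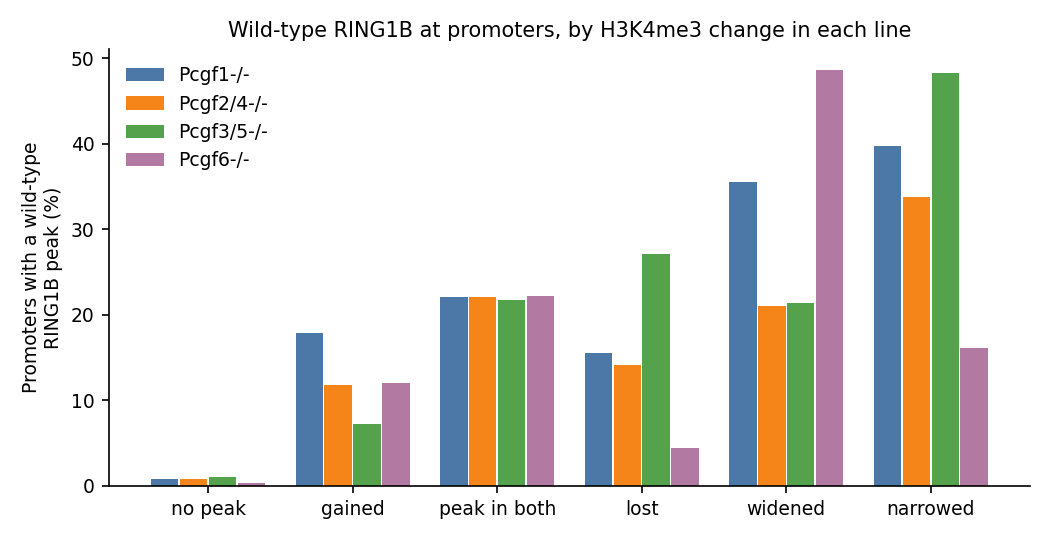
Percent of promoters with a wild-type RING1B peak (vertical axis) by how their H3K4me3 peak changed in each line (horizontal axis), 1 bar for each line. Widened promoters in Pcgf6-/- (48.6%) and narrowed promoters in Pcgf3/5-/- (48.3%) have the highest shares.

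Lists of other genes gained or lost few peaks by count. Of 42 autosomal promoters of developmental regulators, mainly Hox, Gata, Pax, Fox and Nkx genes known as Polycomb targets, 39 had a wild-type peak and 36, 39, 37 and 39 had one in Pcgf1-/-, Pcgf2/4-/-, Pcgf3/5-/- and Pcgf6-/-, with 1, 1, 0 and 4 widened. Of all promoters with a peak in both lists, 1.02%, 1.5%, 0.867% and 3.29% widened. Of the 39 with a wild-type peak, 3, 1, 3 and 1 lost it in the same order of lines. Of all promoters with a wild-type peak, 2.46%, 1.88%, 3.00% and 1.49% did. The losses were thus few but not below those shares in any line. Nkx2-2, the only promoter of the list to gain a peak, did so in Pcgf2/4-/- (11.32), Pcgf3/5-/- (25.51) and Pcgf6-/- (20.95). Of all promoters without a wild-type peak, 3.26%, 2.04% and 7.02% gained one in these lines. RNA of 26 tested members was raised at 8, 9, 2 and 5 genes, where 13.9%, 8.10%, 11.1% and 27.8% of all genes tested were, and lowered at 5, 3, 5 and 8, where 18.4%, 13.5%, 10.4% and 18.6% were. Hoxa9, a posterior Hox gene, rose from 1.57 and 0.985 to 11.6 and 10.1 CPM in Pcgf1-/- (3.08 ± 0.43, adjusted p = 0.000106) and to 20.5 and 24 in Pcgf2/4-/- (4.13 ± 0.40, adjusted p = 1.58e-05), where its promoter peak was 57.13 and 25.22 against 32.28 in wild-type. Hoxa10 rose in the same lines (2.5 ± 0.24 and 2.71 ± 0.25, adjusted p = 6.37e-06 and 1.13e-05) and fell in Pcgf6-/- (-3.19 ± 0.48, adjusted p = 8.14e-05), with peaks of 118.18, 46.0 and 51.89 against 38.64. These genes changed their RNA with a peak present in every list.

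Of 17 autosomal pluripotency genes all had a wild-type peak, and only Dppa3, in Pcgf1-/-, lost it, from a −log10 q of 9.53. Kmt2b and Kmt2d, which encode MLL enzymes, were both matched to the promoter annotated as Mll2 and carry its values. With it counted for both, the 22 autosomal genes of the H3K4 methylation machinery had a peak in all 5 lists. This machinery holds the SET1 and MLL enzymes with their partners and demethylases. Of 25 of its 26 genes that were tested, 6, 2, 0 and 1 were raised and 3, 0, 2 and 3 lowered in the 4 lines, against the same shares of all genes tested, with median log2 differences of -0.02, 0.01, -0.15 and -0.14.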

How the data were processed

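H3K4me3 peaks were measured by ChIP-seq in 1 sample for each of 5 genotypes, and RNA by a SMART-seq2-based poly-A protocol in 2 libraries for each, per the labels. The authors deposited 1 peak list for each sample, in the columns of a MACS table, with −log10 p and −log10 q values and a signal or fold value for each peak; the fold is a ratio per the file headers and was not used. RNA was deposited by the authors as whole-number counts for 23377 gene symbols. Bowtie 1.2.2, TopHat2 2.1.1, HTSeq 0.7.2, Picard 1.62, MACS2 2.1.1, DESeq2 3.7 and the build mm9 are named, without roles, per the submitters' processing notes. Fly chromatin was added to histone ChIP per the labels' protocols, and whether it entered peak calling is not given in the sources used here. Use of strand in counting is also not given there.

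Peaks lay within NCBIM37 (the same build as mm9): 0 chromosome names were foreign to it. Genes came from GENCODE M1. Peaks counted for a promoter with any overlap of its 1 kb window. Of 21418 promoters, 18481 matched the count table by symbol and 851 by an older or newer RefSeq symbol, and 19330 had a row in it. No column of RNA counts was left without a sample (0).

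Counts were tested with edgeR 4.0.16 (R 4.3.3) by a quasi-likelihood fit over 14 libraries (7 genotypes of 2) with TMM factors, after filterByExpr left 15464 genes. The Benjamini-Hochberg adjustment ran over all of these, and the threshold was 0.05. The fit gave a biological coefficient of variation of 12.3% and was tested on simulated data. CPM were computed from the same TMM-adjusted sizes. Nothing in the labels shows that libraries of a genotype came from separate cultures, so p-values measure the spread between these libraries, which may be technical. DESeq2 1.42.0, other filters, scalings and left-out libraries were alternatives. Python 3.11.15, numpy 2.4.6, scipy 1.17.1, pandas 2.3.3 and matplotlib 3.10.9 were used for the rest.

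The genes named for each line were the 6 strongest gained peaks with no wild-type peak within 2.5 kb of a start, the 6 gained promoters with the largest rise of RNA, the 4 strongest lost peaks with no peak of the line within 2.5 kb, the 3 lost promoters with the largest fall, and the 3 most widened and 3 most narrowed promoters with at least 1 kb covered in both lists, with members of the gene lists. Members and lists were chosen with earlier results of these data known. Intervals and floors cover counting error only, at 95% confidence by the exact binomial method.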

Additional observations from a re-analysis of the deposited data

How the results depend on the processing

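Limits: with 1 list for each genotype, no difference of peaks has an error, and the lists differ in strength, so weak gains and losses are the least certain. Requiring a −log10 q of at least 20, an alternative chosen after seeing the data, left 33, 71, 51 and 284 gained and 55, 56, 87 and 57 lost promoters in Pcgf1-/-, Pcgf2/4-/-, Pcgf3/5-/- and Pcgf6-/-. With a −log10 q of at least 10, an overlap of 200 bases, lists cut to equal length or a 2.5 kb window, gained and lost counts stayed within 1.5 times the values given.

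Genes changed numbered 4999, 3340, 3333 and 7185 in the same order of lines. Leaving out 1 replicate gave 2955 to 3848, 1772 to 4704, 1602 to 2112 and 5576 to 5706, from fewer libraries. A log2 change of at least 1 left 2322, 1746, 1756 and 4175. The fit of Pcgf2/4-/- and wild-type alone gave 1146, and wild-type libraries summed as 1 gave 2164 in Pcgf3/5-/-; the cause was not tested. The share of changed genes that were raised moved from 42.9% to 54.2% in the fit of Pcgf1-/- and wild-type alone and to 60.1% without Pcgf1-/- replicate 2, from 37.5% to 54.7% without Pcgf2/4-/- replicate 1, and from 51.7% to 66.2% without Pcgf3/5-/- replicate 2.

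The share of gained promoters with a raised gene ranged, without 1 replicate, over 5.44 to 15.0%, 1.81 to 6.79%, 23.7 to 26.7% and 33.5 to 36.2%. It was 0.905% in the fit of Pcgf2/4-/- and wild-type alone, 44.4% and 42.4% in Pcgf3/5-/- and Pcgf6-/- for gained peaks of at least 20, and 43.9% in Pcgf6-/- with no filter on low counts. With a replicate block, it was 9.52%, 3.62%, 29.0% and 36.7%, and 4517, 2952, 2921 and 6866 genes changed. Deviations of same-numbered wild-type and line libraries from their group means correlated by 0.0815, -0.0502, 0.05 and 0.0288. The wild-type libraries differed by less than the sampling noise, so these values could not show a pairing. Between lines the correlations ran from -0.593 (Pcgf1-/- and Pcgf2/4-/-) to 0.492 (Pcgf1-/- and Pcgf3/5-/-), and their cause was not tested. Under the block Hsf5 in Pcgf2/4-/- (adjusted p = 0.0611) and 2310046K01Rik in Pcgf3/5-/- (adjusted p = 0.0532) were no longer called.

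Median width ratios (log2) were 0.054, 0.038, 0.030 and 0.089 in a 2.5 kb window and 0.064, 0.058, 0.038 and 0.090 with gaps of up to 500 bases filled, and 0.056 and 0.092 in Pcgf2/4-/- and Pcgf6-/- with lists of equal length. Of the log2 RNA differences of single genes over all alternatives, 1058 kept direction and call, 65 (20 genes) lost the call, 9 (7 genes) newly passed and 15 (10 genes, none of them called in the report) changed sign. These were, with the range without 1 replicate, Acrbp (-0.03 to 0.25), Pdcl2 (-0.15 to 0.16, and 0.03 with RLE factors, 0.04 with no filter or with DESeq2 and 0.06 in the fit of 2 groups), Oas2 (-0.86 to 0.01), Wdr69 (-0.01 under the block), Gm1679 (-0.28 to 0.59), Nphs1 in Pcgf2/4-/- (-0.46 to 0.35), Lefty1 (-0.91 to 0.14), Pcgf2 in Pcgf2/4-/- (-0.16 to 0.27), Tdrkh in Pcgf3/5-/- (-0.91 to 0.22) and 4930481A15Rik (-0.08 to 1.54). DESeq2 also did not call Gpr1 (adjusted p = 0.133) or Fut1 (0.562).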

Other observations

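Peaks of the lines that overlapped no wild-type peak lay mostly away from promoters. They numbered 9112 in Pcgf1-/- (22.3% of that list), 15215 in Pcgf2/4-/- (32.7%), 9389 in Pcgf3/5-/- (23.1%) and 13286 in Pcgf6-/- (30.0%), and 7.95%, 6.15%, 7.08% and 9.03% of them touched a promoter window. In Pcgf2/4-/-, 10889 (71.6%) lay in the bodies of protein-coding genes, against 60.3%, 57.4% and 43.1% in Pcgf1-/-, Pcgf3/5-/- and Pcgf6-/-. In Pcgf6-/-, 6354 (47.8%) lay outside both promoters and gene bodies, against 31.8%, 22.3% and 35.5% in Pcgf1-/-, Pcgf2/4-/- and Pcgf3/5-/-. These peaks were narrow, with median widths between 379 and 513 bases, and weak, with a median −log10 q between 11.6 and 14.1 in every class except the 1200 promoter peaks of Pcgf6-/-, at 17.4. Of those 1200, 490 (40.8%) reached a −log10 q of 20, against 17.4%, 24.6% and 18.8% of the promoter peaks in the same order of the other lines.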
